A study of Mus musculus with 117 samples.

Results

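Long stretches of the hepatocyte genome that carried chromatin state 14 without interruption in all 9 inbred mouse strains were examined, and are called deserts here. A desert is an autosomal run of at least 50 kb in which every 200-bp bin was state 14 in each strain's segmentation, with the first 3.2 Mb of each chromosome left out. The search found 478 deserts among 286650 shared state 14 runs of any length. The deserts were chosen by the state calls themselves, so their number, length and state 14 content are given as a description and carry no test.

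Chromatin immunoprecipitation sequencing had been carried out on liver parenchymal cells, the hepatocytes, of females aged 12 weeks. The strains were the classical C57BL/6J, 129S1/SvImJ, DBA/2J, A/J, NZO/HlLtJ and NOD/ShiLtJ and the wild-derived WSB/EiJ, PWK/PhJ and CAST/EiJ. Each strain had 13 libraries, of which 12 came from antibodies to H3K27ac, H3K27me3, H3K4me3 and H3K4me1 in 3 mice and 1 was an input without antibody. The labels name no treatment and no transgene. Every library of a strain points to the same deposited segmentation, so a strain gave 1 value, and no value per mouse and no read depth could be used. The labelled cell type was checked at marker genes. The 21 listed start bins of 15 hepatocyte markers were in state 14 in no strain, and 76.2% to 85.7% of them were in state 3, depending on the strain. At the 9 start bins of Kupffer cell and leukocyte markers, state 14 held 55.6% to 77.8%, and at the 10 start bins of germ cell markers 50% to 80%. Other lists differed: state 14 held 16.7% to 66.7% of 6 endothelial, 20% to 60% of 10 striated muscle, 0 to 42.9% of 7 stellate and bile duct and 0 to 9.09% of 11 neuron start bins. Neuron starts were in state 13 in 36.4% to 63.6%, and endothelial starts were in state 3 in up to 50%.

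A chromatin state is a label for a recurring combination of histone marks. H3K4me3 is known for promoters, H3K4me1 for enhancers, H3K27ac for active promoters and enhancers, and H3K27me3 for genes held silent by Polycomb complexes. State 14 was the most widespread state, and a bin in any other state is called marked. The sources used here do not tie a state number to a mark, so a state is named by its number only. None of the assayed marks is one that typically covers the bodies of transcribed genes, so a long active gene can lack all of them away from its promoter and enhancers.

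The sequences below come from miRNA genes inside deserts and from the starts of protein-coding genes inside deserts or running through them. Pseudogenes were the most numerous kind inside, with 107 genes, and their sequences are not shown. Small RNA genes were packed into a few deserts, above all a block of miRNAs on chromosome 12 that lies between the non-coding genes Rian and Mirg, in the imprinted Dlk1-Dio3 domain. A miRNA pairs with its target messages mainly through the seed, bases 2 to 8 of the mature strand. Of the 92 miRNA genes inside deserts, 30 had entries in the sequence table (RefSeq, GRCm38.p6), which gave 55 mature strands. The chromosome 12 desert gave 48 of these, with 43 different seeds, and only 5 seeds occurred in more than 1 strand of the block. Those strands are shown 5′ to 3′, grouped by seed, with the seed in capitals.
miR-379-5p: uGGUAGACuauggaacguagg
miR-1193-5p: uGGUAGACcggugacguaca
miR-379-3p: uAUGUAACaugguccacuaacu
miR-411-3p: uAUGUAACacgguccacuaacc
miR-758-5p: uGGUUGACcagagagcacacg
miR-1197-5p: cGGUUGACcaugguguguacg
miR-376b-5p: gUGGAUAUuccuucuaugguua
miR-376c-5p: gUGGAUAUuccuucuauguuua
miR-299a-3p: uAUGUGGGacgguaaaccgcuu
miR-299b-3p: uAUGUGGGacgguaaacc

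In each pair the capitals match. Mir299a and Mir299b overlap on opposite strands of the chromosome, and the other pairs come from separate genes of the block. A strand of the miRNA in the Mest and Copg2 desert on chromosome 6 is shown beside them, because it comes from another imprinted domain and shares none of these seeds.
miR-335-5p: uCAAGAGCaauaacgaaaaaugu

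Protein-coding genes inside deserts began in DNA poor in CG dinucleotides, whereas long genes that merely run through a desert mostly began outside it, in DNA rich in them. The 250 bases before the start are shown for 2 genes inside deserts, Olfr1408 (chr1:173137335-173137584, minus strand), an olfactory receptor, and Lct (chr1:128328319-128328568, minus strand), the intestinal lactase. They are followed by those of 2 genes whose bodies lie largely in deserts, Mdn1 (chr4:32656869-32657118, plus strand), a ribosome assembly ATPase, and Ralgapa1 (chr12:55821168-55821417, minus strand), a subunit of a Ral GTPase-activating complex. All run 5′ to 3′ towards the gene (RefSeq, GRCm38.p6), and capitals mark each CG.
Olfr1408: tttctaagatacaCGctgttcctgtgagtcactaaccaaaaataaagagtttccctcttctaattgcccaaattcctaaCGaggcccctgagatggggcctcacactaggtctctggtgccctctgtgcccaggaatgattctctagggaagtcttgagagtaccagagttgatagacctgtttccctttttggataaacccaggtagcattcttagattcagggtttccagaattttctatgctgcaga
Lct: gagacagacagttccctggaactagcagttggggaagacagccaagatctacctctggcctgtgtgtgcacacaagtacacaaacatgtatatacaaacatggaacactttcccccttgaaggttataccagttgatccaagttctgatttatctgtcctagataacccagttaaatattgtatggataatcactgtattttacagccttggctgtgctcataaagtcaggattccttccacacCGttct
Mdn1: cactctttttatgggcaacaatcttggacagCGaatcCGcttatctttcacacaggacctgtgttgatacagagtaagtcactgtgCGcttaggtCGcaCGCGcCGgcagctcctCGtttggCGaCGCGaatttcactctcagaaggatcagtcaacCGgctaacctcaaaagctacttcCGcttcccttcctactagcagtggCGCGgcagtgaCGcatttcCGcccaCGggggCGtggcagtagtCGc
Ralgapa1: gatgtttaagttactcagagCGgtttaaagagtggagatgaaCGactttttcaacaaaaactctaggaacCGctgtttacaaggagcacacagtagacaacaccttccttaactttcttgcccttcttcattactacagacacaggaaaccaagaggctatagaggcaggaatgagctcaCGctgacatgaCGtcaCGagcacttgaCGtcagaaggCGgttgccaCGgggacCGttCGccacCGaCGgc

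The printed stretch held 2 CG dinucleotides at Olfr1408 and 1 at Lct, against 20 at Mdn1 and 13 at Ralgapa1. At the starts of Olfr1408 and Lct all 9 strains were in state 14, since both starts lie inside a desert. At the start of Mdn1 all 9 strains were in state 3, and at that of Ralgapa1 8 of 9 were. Olfr1408 was picked as the olfactory receptor whose start lies farthest from the ends of its desert, 29066 bases away; Lct, Mdn1 and Ralgapa1 were picked after their values had been seen.

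The deserts covered 33.0 Mb, 1.34% of the autosomal bins, and were spread over all 19 autosomes. Their median length was 59.4 kb, with quartiles of 53.0 and 73.0 kb. Of the 478, 245 were shorter than 60 kb and 41 reached 100 kb. The share of a chromosome in deserts ran from 0.579% on chromosome 16 to 2.20% on chromosome 10. Near the threshold, 62 shared runs measured 48 to under 50 kb and 84 measured 50 to under 52 kb, 11 of them exactly 50 kb. A shared run of any length had a median of 2.60 kb.

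**Figure D1:**
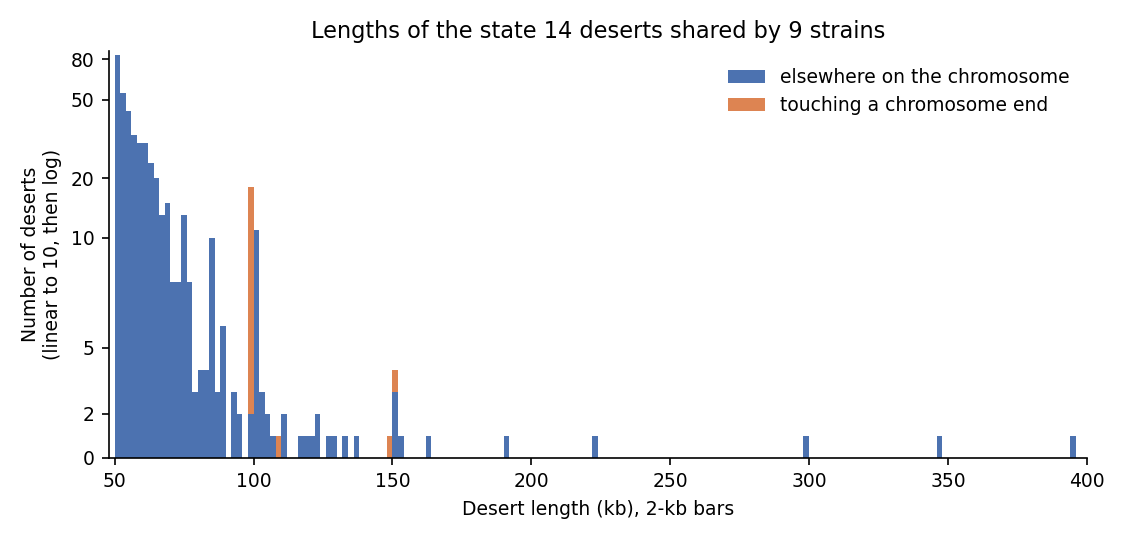
Number of deserts (vertical axis, linear to 10 and logarithmic above) by length in kb (horizontal axis, bars of 2 kb), with deserts that touch a chromosome end in orange. The counts fall from 84 deserts at 50 to under 52 kb, and the end deserts pile up just below 100 kb.

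All 19 autosomes ended in a desert, and 16 of these 19 end deserts measured 99.6 or 99.8 kb. The remaining 3 were over 100 kb, and the longest, on chromosome 4, measured 150 kb. Mouse assemblies carry unsequenced blocks of fixed size at chromosome ends, to which no read can map. Away from the ends, 14 of the 45 deserts of 90 kb or more also lay within 0.6 kb of 100 or 150 kb, and 9 of those 14 overlapped no annotated gene. How much of any desert is unsequenced was not tested. The end deserts overlapped no annotated gene. Without them 459 deserts of 31.0 Mb remained, and the border and flank results are given both ways.

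None of the 10 longest deserts held a whole protein-coding gene, and 8 of the 10 overlapped no annotated gene of any kind. The other 2 were chr4:146276401-146467400, which overlapped the zinc finger gene Zfp992, and chr12:55602001-55765000, which overlapped Ralgapa1 and the edge of Insm2. The longest, chr5:15062601-15457600, measured 395.0 kb and lay 14.1 kb from Gm21149 and 29.6 kb from Gm17019. In 7 strains the run around it was also 395.0 kb, in WSB/EiJ it was 395.2 kb and in C57BL/6J 405.6 kb, so its borders hardly moved. The next, chr10:57859401-58205800, measured 346.4 kb and had Smpdl3a 47.6 kb to its left and LOC100504180 16.6 kb to its right. The strains' own runs there measured between 346.4 kb in CAST/EiJ and 362.2 kb in DBA/2J. After it came chr4:60849601-61149400, which measured 299.8 kb and lay inside the cluster of major urinary protein genes, which code for pheromone-binding proteins made by the liver. Its neighbours were Mup22, 28.0 kb away, and Mup13, 74.9 kb away. The own runs of the 9 strains there all measured 299.8 to 300.2 kb. This length is close to a multiple of 50 kb, and how much of the run is unsequenced was not tested. None of the 22 major urinary protein genes lay inside a desert.

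In most deserts the strains' own runs varied more than in these. Across all deserts, the longest own run of any strain was a median of 1.81 times the shared run, and in 212 of the 478 it was at least 2 times as long. It stayed within 1.1 times in 16 of 19 end deserts, in 20 of the 140 that lay within a protein-coding gene and in 11 of the 123 that overlapped no annotated gene and were not at an end. The desert that holds Vmn1r253 showed the widest range among those named here: 75.4 kb in WSB/EiJ, 113.0 kb in CAST/EiJ, 134.0 kb in PWK/PhJ, 159.4 kb in A/J, 168.0 kb in NOD/ShiLtJ, 203.8 kb in 129S1/SvImJ, 492.0 kb in C57BL/6J, 545.8 kb in DBA/2J and 873.8 kb in NZO/HlLtJ. The shared desert there is therefore set by marks of WSB/EiJ on both sides, state 13 on the left and state 9 on the right.

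Which strains limited the deserts was described next. The number of a strain's own state 14 runs of 50 kb or more was 4978 ± 855 (SD, n = 9 strains), from 3518 in PWK/PhJ and 4041 in CAST/EiJ to 5838 in C57BL/6J and 6173 in DBA/2J. Leaving out PWK/PhJ raised the count of deserts from 478 to 1240, and their length from 33.0 to 87.3 Mb. Leaving out CAST/EiJ gave 641 deserts, and leaving out any of the other 7 strains gave between 488 and 531. PWK/PhJ and CAST/EiJ come from other subspecies of the house mouse than most laboratory strains. The size of a strain's effect on the count follows in part from its own number of long runs, and differences in library depth between strains cannot be told apart from differences of the strains, because no depth is given.

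**Figure D2:**
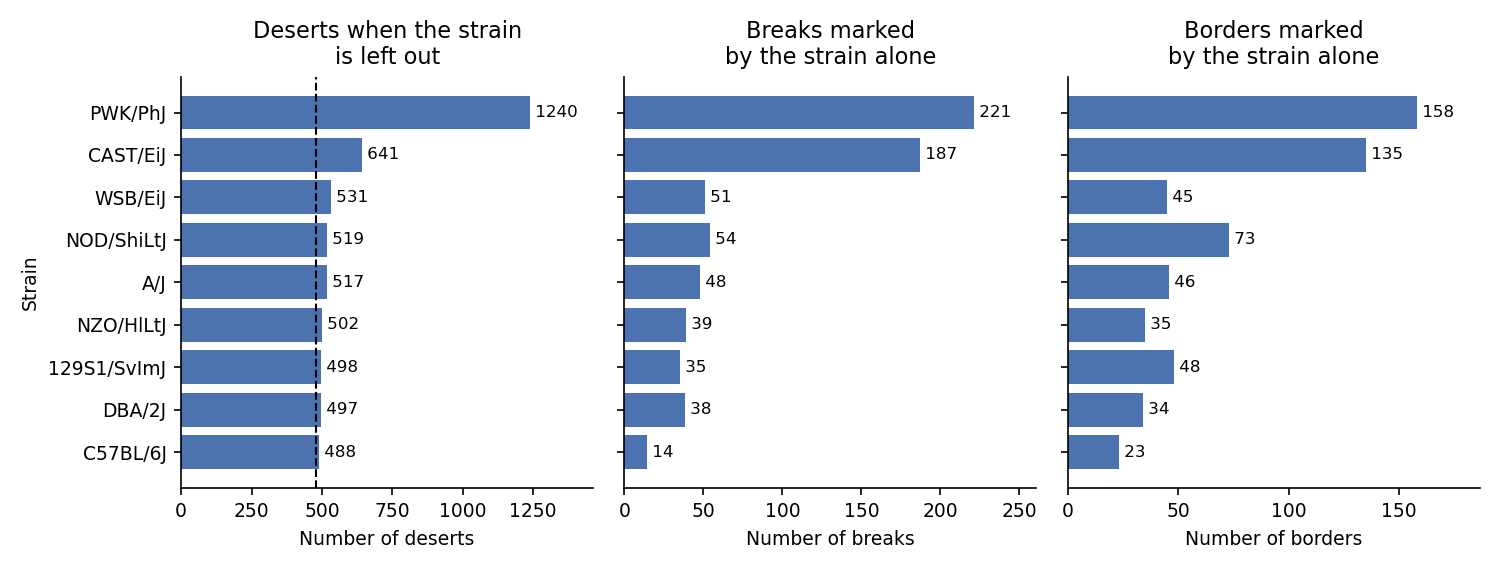
Bars per strain: deserts found when that strain is left out (left, dashed line at the 478 found with all strains), breaks marked by that strain alone (middle) and desert borders marked by that strain alone (right). PWK/PhJ and CAST/EiJ have the longest bars in all 3 panels, with 1240 and 641 deserts, 221 and 187 breaks, and 158 and 135 borders. The 3 panels come from the same state calls and are not independent.

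A border is the first bin outside a desert, and there were 937 of them. Most borders were set by 1 strain: 597, or 63.7%, were marked in exactly 1 strain, 136 in 2 strains, 172 in 3 to 8 and 32 in all 9. PWK/PhJ alone marked 158 borders and CAST/EiJ alone marked 135, followed by NOD/ShiLtJ with 73. C57BL/6J alone marked 23. Of the 32 borders marked in every strain, 12 belonged to the 19 end deserts. Borders marked in 1 strain were not counted at shared runs of 10 kb to under 50 kb. There each of the 9 strains marked a smaller share of borders than at deserts. The shares ran from 9.70% against 14.4% in DBA/2J to 31.2% against 32.6% in PWK/PhJ.

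Breaks come from the same state 14 calls as the deserts and their borders, so they are no independent evidence. They gave the same order of strains at its top. A break is a marked stretch of at most 1 kb between 2 shared runs that would be at least 50 kb long if joined across it. There were 1361 breaks, of which 687, or 50.5%, were marked in 1 strain only and 107, or 7.86%, in all 9. Of all breaks, 764 lay between 2 runs each under 50 kb. The others adjoined a desert, so their edge bins include desert borders. The share marked in 1 strain depended on the definition: it was 71.7% for breaks of 1 bin, 46% for breaks of up to 2 kb, and 33.3% where the joined run had to reach 100 kb. PWK/PhJ alone marked 221, CAST/EiJ alone marked 187, and the other strains marked between 14 (C57BL/6J) and 54 (NOD/ShiLtJ) alone. State 6 made up 68.8% of the marked bins in breaks and state 13 made up 17.1%. In breaks marked by 1 strain the order was turned, with 58.1% in state 13 and 32.1% in state 6. The share of state 13 among a strain's marked bins in breaks was 33.9% in PWK/PhJ and 22.8% in CAST/EiJ, and at most 17.7%, in NOD/ShiLtJ, in the others. The lowest was 6.23%, in NZO/HlLtJ.

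The rule fixed state 14 inside a desert but not which other state stands beside it, so the states outside were tested. A state that the rule keeps out of a desert may also be rarer close by, and this was not separated. Among the border bins a strain had marked, 50% ± 8.44 were in state 6, 24.7% ± 7.39 in state 13 and 11.3% ± 4.45 in state 4 (SD, n = 9 strains). At the borders of shared runs of 10 kb to under 50 kb the same states held 54.8%, 29.4% and 10.1%. None of these 3 differences passed the test over strains (exact two-sided sign-flip permutation, adjusted p from 0.2104 to 0.2934 over 13 states). States 5 and 7 were higher at desert borders in 9 of 9 strains. State 5 held 3.62% ± 1.5 against 0.124%, and state 7 held 2.15% ± 0.804 against 0.103% (exact sign-flip permutation, adjusted p = 0.0254 each). Nearly all of the first and many of the second lay at the end deserts: 63 of the 64 border calls in state 5 and 23 of the 40 in state 7 were at the borders of the 19 end deserts. Without the end deserts 0 states passed by the exact sign-flip test, with 5 at an unadjusted p under 0.05. State 5 then differed by -0.0719 points from shorter runs (adjusted exact permutation p = 0.395), and state 7 was 0.830 points higher (adjusted exact permutation p = 0.0508).

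The surroundings of deserts differed more clearly from the rest of the autosomes. Within 50 kb of a desert, 12.8% to 15.1% of bins were marked, depending on the strain, against 22.4% to 26.4% elsewhere. That difference was given no test, because the rule selects for state 14. Among marked bins, state 13 was less frequent near deserts, with 31.3% ± 3.32 against 47.3% ± 3.44 (SD, n = 9 strains). The difference was -16.0 points ± 2.00 and was negative in every one of the 9 strains (adjusted p = 0.0056 by the exact permutation test). The rule kept state 13 out of every desert, and with states 13 and 14 merged it gave 7950 runs instead of 478. How far this selection lowers state 13 nearby was not tested. The share of state 6 rose most, from 10.9% ± 1.08 to 18.5% ± 1.16, by 7.67 points ± 0.624 (9 of 9 strains, same adjusted exact permutation p). State 9 rose from 3.43% to 7.05%, state 8 from 2.90% to 5.36%, state 1 from 10.7% to 12.4% and state 3 from 1.75% to 2.70%, each in 9 of 9 strains at that p. The rare states 5 and 11 were also higher in 9 of 9 strains, and state 10 was lower in 9 of 9. All of these are shares of marked bins, where a lower share of state 13 raises the other shares. Fewer bins were marked near deserts, so a higher share does not show that a state filled more of all bins there. Without the end deserts 8 of these 9 states passed, with state 13 at -17.0 points and state 6 at 7.98 points (adjusted exact permutation p = 0.0063 each). State 5 was then lost (0.0783 points, adjusted exact permutation p = 0.2285). Its difference was 0.148 points over all strains and 0.0903 points without PWK/PhJ. States 2, 4, 7 and 12 did not pass (exact permutation, adjusted p from 0.0914 to 0.8008). The strains share the same deserts and part of their ancestry, so the test speaks of strains, not of other regions. The direction for state 1 held at 50 kb but not at 10 kb to each side, where its difference was -0.936 points (adjusted exact permutation p = 0.0127).

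**Figure D3:**
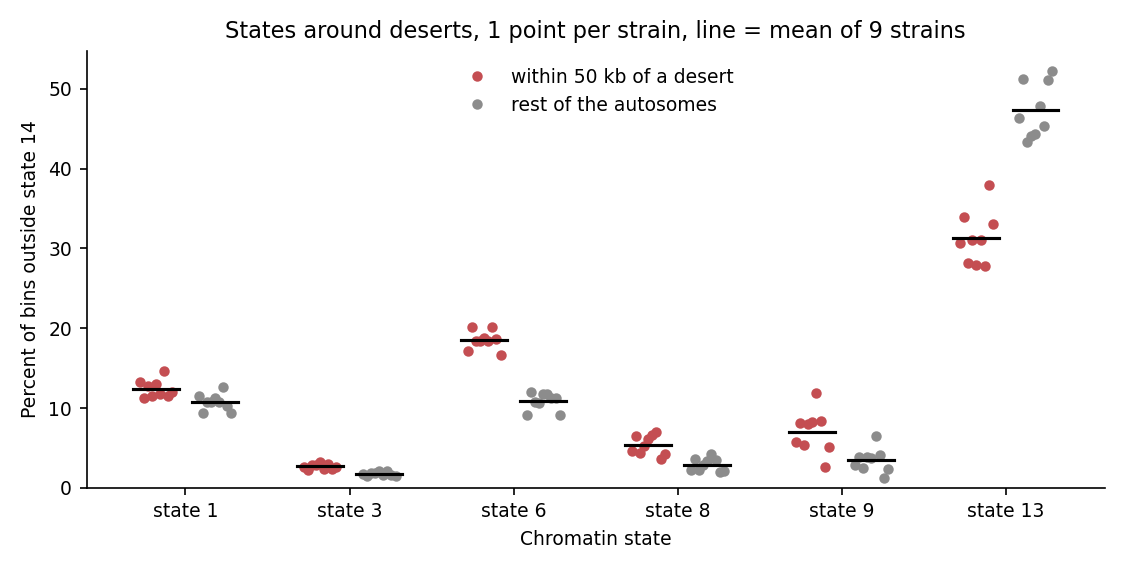
Percent of marked bins in each of 6 states (vertical axis), within 50 kb of a desert (red) and in the rest of the autosomes (grey); each point is 1 of 9 strains and each line is a mean. The ranges do not overlap for states 3 and 6 (higher near deserts) and state 13 (lower near deserts).

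The long deserts stood in another setting than the short ones. For the 41 deserts of 100 kb or more, the difference in state 13 had the opposite sign, 6.11 points ± 4.61 above the rest (adjusted exact permutation p = 0.0305). The difference in state 6 was -2.21 points ± 1.68 (adjusted exact permutation p = 0.0254). That in state 1 was -2.53 points (adjusted exact permutation p = 0.0169). In flanks of the 437 shorter deserts state 13 held 28.0% ± 3.35 of marked bins, from 24.1% to 34.2% over the strains. In flanks of the 41 longer ones it held 53.2% ± 4.59, from 45.7% to 60.7%, so the ranges did not overlap. Without the 3 end deserts among the 41 the share was 52.5%. State 6 went the other way, with 20% ± 1.33 in the shorter group and 8.74% ± 1.13 in the longer one. At borders state 13 turned as well, while state 6, already at -4.88 points over all deserts, moved further the same way. Borders of deserts of 100 kb or more were compared with those of runs of 10 kb to under 50 kb. State 13 differed by 21.9 points, and state 6 differed by -34.6 points (exact permutation, adjusted p = 0.0127 for each). The 9 strains were read at the same borders of these 41 deserts, so this p speaks of strains, not of long deserts in general. At the longest desert alone, state 13 stood at the left border in 7 strains and at the right border in 9. Length was not separated from possible unsequenced blocks in these comparisons. Most of the 14 deserts near 100 or 150 kb away from the ends fell in the longer group. The 16 end deserts of 99.6 or 99.8 kb fell in the shorter group.

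Gene content moved together with these shares. Of the 478 deserts, 140 lay within the span of a single protein-coding gene, and 103 others overlapped one. A further 93 overlapped annotated genes of other kinds only, 123 overlapped none, and 19 were at chromosome ends. State 13 held 16.7% ± 2.09 of the marked flank bins in the first of these classes, 32.1% ± 3.48 in the second and 24.7% ± 7.32 in the third. It held 49.4% ± 5.57 where no gene was annotated and 71.3% ± 5.94 at the ends. Among deserts of 100 kb or more, 19 had no annotated gene, with 56.2% of marked flank bins in state 13, and 15 overlapped a protein-coding gene, with 46.5%. Among shorter ones the values were 46.2% and 21.3%. Within both kinds the longer deserts had the larger mean share. Classes were formed after the values had been seen, and no test was run on them.

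**Figure D4:**
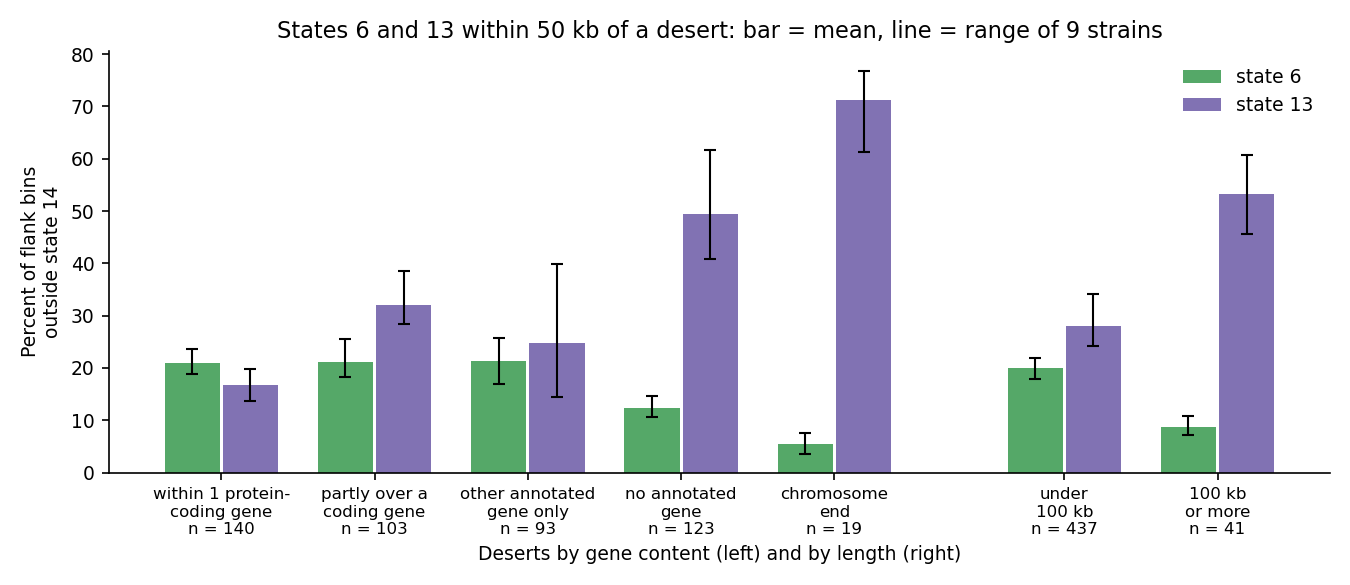
Percent of marked bins within 50 kb of a desert that were in state 6 (green) or state 13 (purple), for deserts grouped by gene content and by length; bars are means and lines the range of 9 strains. State 13 runs from 16.7% for deserts within a protein-coding gene to 71.3% at chromosome ends, and from 28.0% under 100 kb to 53.2% at 100 kb or more.

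Deserts were not empty of genes by length. Spans of protein-coding genes covered 39.6% of desert length, or 42.2% without the end deserts, against 40.9% of the autosomes. Starts were rarer: 55 of 20085 listed starts of protein-coding genes lay in deserts, 0.274%, against the 1.37% of the searched bins that deserts cover. State 14 at a start is what the rule selects, so this low share is a description.

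Genes wholly inside a desert were few. Of 20665 protein-coding genes, 52, or 0.252%, lay inside 1 of 31 deserts, and among the 7342 that are shorter than 10 kb the share was 0.640%. For all 47042 annotated genes it was 0.746%. Overlap by any amount held for 277 protein-coding genes, or 1.34%. The strain that set most of this count was PWK/PhJ: without it 191 protein-coding genes were inside. Chemosensory receptors made up most of the 52. Olfactory receptors, each expressed by a small part of the sensory neurons of the nose, had 20 of 1104 inside, or 1.81%. Vomeronasal receptors, which detect pheromones, had 10 of 354, or 2.82%. Trace amine receptors, which detect volatile amines, had 5 of 15, or 33.3%. Without PWK/PhJ the olfactory and vomeronasal counts were 114 and 23, while the trace amine count remained 5.

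The trace amine receptors formed 1 block. Taar7a, Taar7b, Taar7d, Taar7e and Taar7f lay in the desert chr10:23988801-24052000, 63.2 kb long. The own runs of the strains there measured 63.2 kb in CAST/EiJ, 71.6 kb in A/J, 84.6 kb in DBA/2J, 84.8 kb in NZO/HlLtJ, 85.0 kb in C57BL/6J and WSB/EiJ, 90.2 kb in PWK/PhJ, 93.0 kb in NOD/ShiLtJ and 93.6 kb in 129S1/SvImJ. CAST/EiJ was the lowest and set both borders, with state 4 on the left, shared by 5 strains, and state 6 on the right, shared with A/J. The 20 olfactory receptors shared 8 deserts, 7 of them in the receptor clusters of chromosome 2. Olfr1283, Olfr1284, Olfr1285 and Olfr1286 lay in a desert of 68.8 kb, and Olfr1047, Olfr1048, Olfr1049 and Olfr1051 in one of 61.6 kb. Olfr1408 lay on chromosome 1, in a desert of 71.4 kb. The 10 vomeronasal receptors lay in 9 deserts on chromosome 7, among them Vmn1r132 in a desert of 87.4 kb, Vmn1r253 in one of 75.4 kb, and Vmn1r130 and Vmn1r131 in one of 68.2 kb. Members of these families are close copies of each other, so reads may not be placed uniquely among them, and their absence of marks is uncertain to that extent.

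Other lists gave single genes or none. The bitter taste receptor Tas2r117, the prolactin family gene Prl5a1 and the zinc finger gene Zfp640 were inside, 1 gene of 35, of 25 and of 388. In the remaining 21 of 27 lists no gene was inside. These included the defensins (71 genes), keratins (53), keratin-associated proteins (56), protocadherins (67), potassium channels (92), cytochromes P450 (99), ribosomal proteins (94) and proteasome subunits (50). At a background of 0.252%, a list of this size would hold less than 1 gene, so these counts of 0 say little. Of 98 autosomal marker genes of hepatocytes, other liver cells, neurons, germ cells, muscle and ubiquitous functions, 0 lay inside. Reln, a stellate cell marker here, and Ttn, the giant muscle protein, overlapped a desert. Among the 14 genes in no list were Lct, in a desert of 87.6 kb, Il1f8, a member of the interleukin 1 family, in one of 73.0 kb, and Pdcl2 in one of 50 kb.

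**Figure D5:**
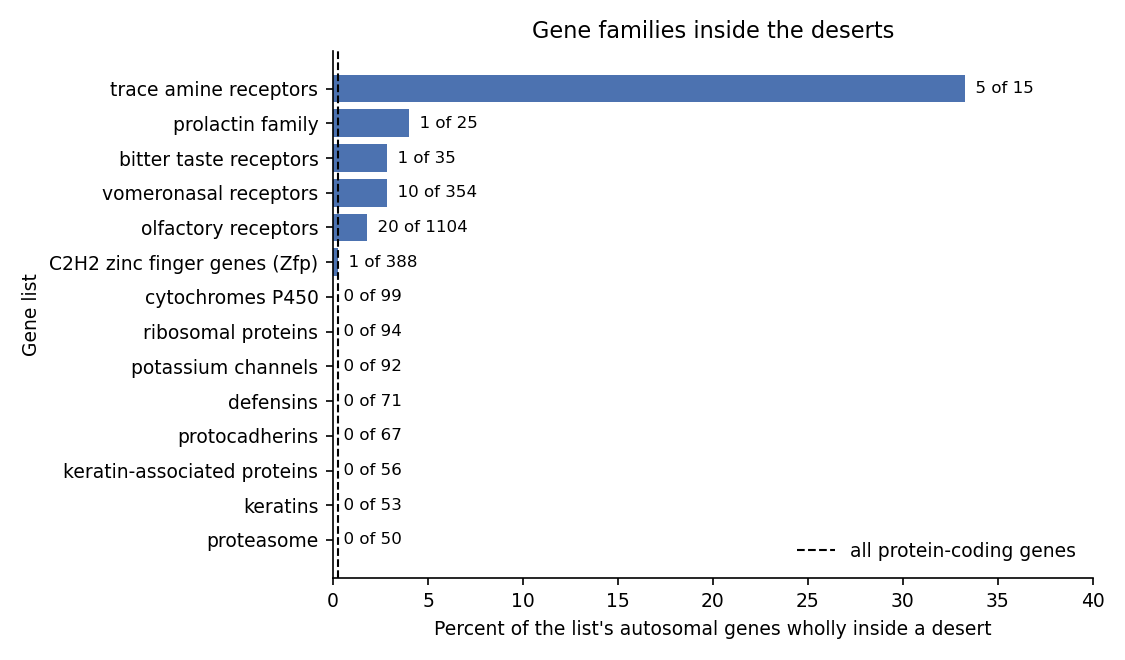
Percent of each gene list that lies wholly inside a desert (horizontal axis), with the count beside each bar; lists with a gene inside and the 8 largest lists with none are shown. The dashed line is the 0.252% of all protein-coding genes, while for those under 10 kb the share was 0.640%. The trace amine receptors stand at 33.3%, from 5 genes of 1 block.

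Small RNA genes were the kind most often inside. Of 1136 autosomal miRNA genes, 92, or 8.10%, lay inside 7 deserts, and 87 of the 92 lay in 2 of them. The first, chr2:10462401-10512400, held 61 miRNA genes and overlapped Sfmbt2, a Polycomb gene with an imprinted miRNA cluster, and measured 50 kb, right at the threshold. The own runs there measured between 50.2 kb in PWK/PhJ and 76.0 kb in 129S1/SvImJ, and state 6 stood at 3 of the strain calls on its borders. Its miRNA genes had no entry in the sequence table. Whether reads can be placed uniquely among them was not tested. The other was the chromosome 12 block whose seeds are shown above, chr12:109664201-109729600, with 26 miRNA genes and 8 snoRNA genes in 65.4 kb. The own runs there ranged from 65.4 kb in NOD/ShiLtJ to 111.0 kb in DBA/2J, with a median of 72 kb. Its right border was in state 6 in CAST/EiJ, NOD/ShiLtJ and PWK/PhJ and in state 14 in the other 6 strains. The 5 other miRNA genes were Mir335, Mir151, Mir350, Mir6342 and Mir6897, each in a desert of its own. Mir335, on chr6:30740201-30803000, lay in a desert that overlaps Mest, an imprinted gene, and its neighbour Copg2, with own runs from 63.0 to 74.0 kb.

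Of 1286 snoRNA genes, 48, or 3.73%, were inside, and 32 of them lay in 2 deserts of the long non-coding gene Snhg14, in the imprinted region linked in humans to Prader-Willi syndrome. One of these deserts held 28 snoRNA genes in 56.8 kb and the other held 4 in 59.8 kb. Pseudogenes, at 107 of 8884 or 1.20%, and long non-coding genes, at 37 of 12408 or 0.298%, were nearer to the 0.746% of all annotated genes. Because 2 deserts hold 87 of the 92 miRNA genes, the share of 8.10% rests on those places and not on miRNA genes in general.

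The 128 protein-coding genes whose span held a whole desert were called hosts. All were at least 50 kb long, and they made up 2.71% of the 4725 genes of that length. Hosts had a median span of 220.4 kb, against 96.8 kb for the 4540 other genes of 50 kb or more that overlapped no desert. The 10 genes with the most length in deserts were Zfp993 (233 kb), Ralgapa1 (162 kb), Sdk1 (153 kb), Syne2 (153 kb), Pclo (141 kb), Sbf2 (139 kb), Dock2 (137 kb), Trappc9 (127 kb), Nckap5 (125 kb) and Auts2 (123 kb). Deserts also filled 94.2% of the 118 kb of Mdn1 and 80.6% of the 151 kb of Htt, the huntingtin gene, both picked after their values were seen. The desert in Htt, chr5:34781001-34902600, measured 121.6 kb, and the own runs of 8 strains there were 121.6 to 122.2 kb and that of PWK/PhJ 133.4 kb. At the start bins of Htt, Mdn1, Syne2 and Sbf2 all 9 strains were in state 3, and 8 of 9 were at Ralgapa1 and Pclo. Other genes of the 10 differed. Zfp993 was in state 14 in all 9 strains, Sdk1 in states 7, 9 and 11, and Nckap5 in state 8 in 7 strains. Trappc9 and Auts2 had no listed start to read. Dock2, which acts in leukocytes, had state 14 at its first listed start in all 9 strains, and the own runs around its desert of 136.6 kb reached 264.2 kb in C57BL/6J.

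States at the starts of hosts were set beside those of the other genes of 50 kb or more. The 116 host start bins outside deserts belonged to 94 genes, and the 4740 others to 3536 genes. State 3 held 45.5% ± 2.75 of host starts, with strains from 41.4% to 50%, against 40.4% ± 1.33 at the others (SD, n = 9 strains). State 1 held 13.6% ± 1.20 against 9.92% ± 0.865. State 13 held 4.02% ± 0.610, from 3.45% to 5.17%, against 13% ± 1.00, from 11.8% to 15.1%, so the ranges did not overlap. State 14 held 17.1% ± 1.58 against 16.0% ± 1.31. The difference was -9.01 points ± 0.662 for state 13, lower at hosts in 9 of 9 strains, and 5.07 points ± 2.41 for state 3, higher in 9 of 9. Over all bins within 1 kb of the start, state 3 differed by 0.181 points only, while state 13 differed by -10.7 points. By the rule a host also holds at least 50 kb without state 13 in any strain, which the other genes need not. How far this lowers state 13 at host starts was not tested. The hosts were defined after the data had been seen and the strains share the same starts, so no test was run, and the longer span of hosts was not separated from these shares except by limiting both sides to genes of 100 kb or more. There the differences were -11.4 points for state 13 and 7.82 points for state 3.

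Sequence at the starts differed between genes inside deserts and host genes. Genes inside have state 14 at their start by the rule. No comparison was made with starts in state 14 outside deserts, so the difference cannot be tied to deserts rather than to state 14. The window ran from 250 bases before to 50 bases after the start. The 42 windows of genes inside deserts held a median of 2.00 CG dinucleotides and at most 7.00, against a median of 14 in the 20043 windows of all other protein-coding genes. Their median GC content was 37.3% against 57%, and the median ratio of observed to expected CG was 0.178 against 0.587. A ratio of 0.6 or more, usual for CpG islands, was found in 0 of these 42 reference windows and in 49.0% of the others. The letters TATAAA, on either strand and anywhere in the window, were in 20 of the 42 windows, or 47.6%, and in 12.6% of the others. The motif reads TTTATA on the opposite strand, and overlaps were not counted. Of the 42 windows, 29 belonged to genes under 5 kb whose length is a multiple of 3. Such a length was taken as a sign of a model that holds coding sequence only, where the window precedes the coding start. It does not show this for a single gene. Of the neighbouring genes Gm11756, Gm11757, Gm11758 and Gm13871, only Gm11756 met it. In the other 13 windows the median was 3.00 CG dinucleotides, and 4 held TATAAA.

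The receptor windows outside deserts were also poor in CG and often held TATAAA. Olfactory receptors inside deserts had a median of 1.00 CG dinucleotide in 14 windows, as did the 928 windows of olfactory receptors not inside. For vomeronasal receptors the medians were 3.00 in 8 windows inside and 1.00 in 315 not inside. For trace amine receptors they were 1.00 in 5 windows inside and 4.50 in 6 not inside. TATAAA was in 50% of the olfactory windows inside and 40.9% of those not inside, in 62.5% and 34.6% of the vomeronasal ones, and in 60% and 50% of the trace amine ones. The 13 windows of genes inside that belong to no list had a median of 3.00. Host genes had a median of 19 in 117 windows, against 18 in the 4981 windows of genes of 50 kb or more that hold no desert. A ratio of 0.6 or more was found in 61.5% and 57.4% of these, and TATAAA in 1.71% and 8.37%.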

How the data were processed

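The 117 libraries gave 9 segmentations, 1 per strain, deposited by the authors as intervals with a state number from 1 to 14. The state number is a category and not a measurement on a scale. Per the submitters' processing notes, the build was mm10 and FastQC 0.11.5 and MACS 1.4.2 were among the tools. The aligner, the segmentation tool, the link from state to mark and the read depth are not given in the sources used here, so no interval for counting error could be given.

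Segmentations were read as 200-bp bins (Python 3.11.15, numpy 2.4.6, pandas 2.3.3), and the run search was tested on simulated data, where 209 of 209 planted runs were found. Shares of marked bins were compared over strains by an exact two-sided permutation test that flips the sign of each strain's difference (numpy 2.4.6). With 9 strains its smallest p is 0.0039, and p-values were adjusted by Benjamini and Hochberg over 13 states. The strains share ancestry, and the test says nothing about mice within a strain. Figures were drawn with matplotlib 3.10.9. Genes, starts, promoter windows and miRNAs came from RefSeq tables of GRCm38.p6, the same build as mm10. A gene was inside when its whole span lay in 1 desert.

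Named genes were those inside the 10 longest deserts, the neighbours of the 3 longest, the 10 with most length in deserts, and up to 3 per list in the longest deserts, together with marker genes inside. Genes outside this rule, among them Htt, Mdn1, Lct, Il1f8, Pdcl2 and the genes of the small RNA deserts, were chosen after their values were seen. The rule for printed promoters also named Vmn1r130 and Taar7d. By their length these were taken as models that hold coding sequence only, so their windows were not printed. The deserts and the gene lists were chosen with earlier results of these data known. Chromosome ends, merged states and the starts of host genes were added as alternatives after seeing the data. Sex chromosomes were not used here.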

Additional observations from a re-analysis of the deposited data

Results flagged for a closer look

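In 4 of 22 sets of 9 strain values, 1 strain lay apart from the others by a gap larger than Dixon's 95% limit for 9 values. Chance flags about 1 in 20 such sets. Without PWK/PhJ the search gave 1240 deserts, and the next count was 641, without CAST/EiJ. State 13 made up 42.0% of the border bins marked in PWK/PhJ, and the next strain had 28.8%. State 5 made up 0.774% of the marked bins within 50 kb of a desert in PWK/PhJ, and the next strain had 0.266%. At the starts of host genes state 13 held 5.17% in A/J, and the next value was 4.31%, which at 116 start bins is a step of 1 bin.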

How the results depend on the processing

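The number of deserts, 478, depended on the rule: 7955 at a minimum of 20 kb, 41 at 100 kb, 2605 with state 14 in at least 8 of 9 strains, 743 with lone marked bins ignored and 7950 with states 13 and 14 merged. Leaving out 1 strain gave 488 to 1240, the highest without PWK/PhJ. Protein-coding genes inside, 52 in the report, numbered 277 by any overlap, 173 by midpoint, 351 with all annotated genes, 316 at 20 kb and 0 at 100 kb, and 53 to 191 with 1 strain left out. Breaks numbered 350 at a width of 1 bin and 87 when 100 kb was asked of the joined run. A strain had a mean of 1226 own runs of 100 kb or more.

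At borders, 2 states passed the exact sign-flip permutation test in the report, 4 in the first 1 kb, 5 against runs of 2 kb to under 10 kb, 6 for deserts of 100 kb or more, and 0 without end deserts, where 5 had an unadjusted p under 0.05. State 5, among the 6, stood at no border of deserts of 100 kb or more. Its pass follows from that absence, and its difference is minus its share of 0.124% at the shorter runs. With 1 strain left out, 0 to 3 states passed, 3 of them without NOD/ShiLtJ. With 8 strains and 2 states at the smallest p, the adjusted exact permutation p is 0.0508, so these counts of 0 come from fewer strains. Signs turned for state 4 in the first 1 kb (-0.261 points) and for state 6 against the shorter runs (8.47 points). They also turned for state 13 (21.9) at 100 kb, and for state 5 without end deserts (-0.0719). At 100 kb the sign of state 5 (-0.124) only reflects that it was absent there.

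In flanks, 9 states passed, and 5 at 100 kb, where signs turned for state 1 (-2.53 points), state 6 (-2.21) and state 13 (6.11). At 10 kb to each side state 1 turned (-0.936). The cause of these turns was not tested. No paired analysis was possible because each segmentation combines the mice of its strain. This concerns the replicate numbers of mice, since the tests did pair desert and comparison within a strain. Depth is unknown, so a desert shows where no marked bin was called and not that no mark is present. Unsequenced or repeated blocks inside deserts were not measured.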
